A study of Mus musculus with 30 samples.

Results

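The small leucine-rich proteoglycans are a family of secreted matrix proteins, and 10 of them are described here: decorin (Dcn), biglycan (Bgn), asporin (Aspn), extracellular matrix protein 2 (Ecm2), fibromodulin (Fmod), lumican (Lum), Prelp, osteomodulin (Omd), osteoglycin (Ogn) and podocan (Podn). They were taken by gene symbol, 10 of the 38561 mouse genes in the count table, and each symbol matched 1 row. The RNA was that of inguinal adipose-derived stem cells, taken from male C57BL6/J mice, sorted as Sca-1+ CD34+ CD31- CD45- Ter119- cells and expanded in culture to passage 2. There were 6 aged obese, 8 aged lean, 8 young obese and 8 young lean mice, with 1 library each, 30 in all. Obese mice were fed from weaning on a high-fat diet, fat giving 60% of energy, and lean mice were fed control chow. They were killed at 52 weeks (aged) or 20 weeks (young). Aged obese mice had therefore been on the diet for longer, and in obese mice age and time on the diet cannot be told apart. Libraries are called by group and mouse number, which has no order.

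Proteins of this family have a core of leucine-rich repeats that binds collagen fibrils, and most carry chondroitin, dermatan or keratan sulfate chains. They set the width and spacing of fibrils, and several hold growth factors such as TGF-beta in the matrix. In adipose tissue they are made mainly by stromal cells, the fibroblast-like cells from which fat cell precursors come.

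Counts in genes ranged from 30597765 to 47970233 per library. Ly6a, which encodes Sca-1, was at 176 to 1250 CPM (scaled counts relative to the library total) and Cd34 at 0.193 to 38 CPM, which is little RNA in some libraries of cells sorted as CD34+. Of the excluded markers, Pecam1 (CD31) and Ptprc (CD45) were near 0 in all libraries, with at most 0.278 CPM for Pecam1 and 0.029 for Ptprc. Some libraries of a group lay apart from the rest. Young obese 1 and 2 were close to each other, with a chi-square per gene of 8.39, and far from the other 6 young obese libraries (159 to 380). Among those 6, young obese 22 was 130 to 183 from the rest, which were 6.52 to 23 from each other. Each library entered the main fit as a separate mouse. Aged obese 10 and 12 were 77.1 apart and 245 to 502 from the other 4 aged obese libraries, and they held the least Ly6a (176 and 362 CPM) and Cd34 (0.193 and 0.732 CPM). Calls of members that rest on young obese 1 and 2 or aged obese 10 and 12 are given with and without them. Calls of other genes are given from all 30 libraries only, and were not checked without these.

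Biglycan was by far the most abundant of the 10. Together the members took 0.54% to 1% of the counts in genes per library, and Bgn alone took 80.6% to 96.2% of the members' counts. Per kb of exon, the scale on which genes can be compared, the median over 30 libraries was 996 CPM per kb for Bgn, 157 for Fmod, 77.5 for Prelp, 28.1 for Ogn and 9.1 for Aspn. Podn followed with 2.94, Dcn with 1.92, Omd with 0.778, Ecm2 with 0.358 and Lum with 0.076 CPM per kb. Bgn ranked between 32nd and 47th of 14297 genes with a length in the 4 groups. Its lowest library was above the highest library of Fmod on this scale, whereas every other pair of neighbours in the order overlapped between libraries. All 10 passed the filter on low counts. Lum passed it by few libraries: it reached the minimum of 0.279 CPM in 3 aged obese, 1 aged lean, 0 young obese and 6 young lean libraries, had 367 counts over all libraries and none in 3 of them.

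**Figure D1:**
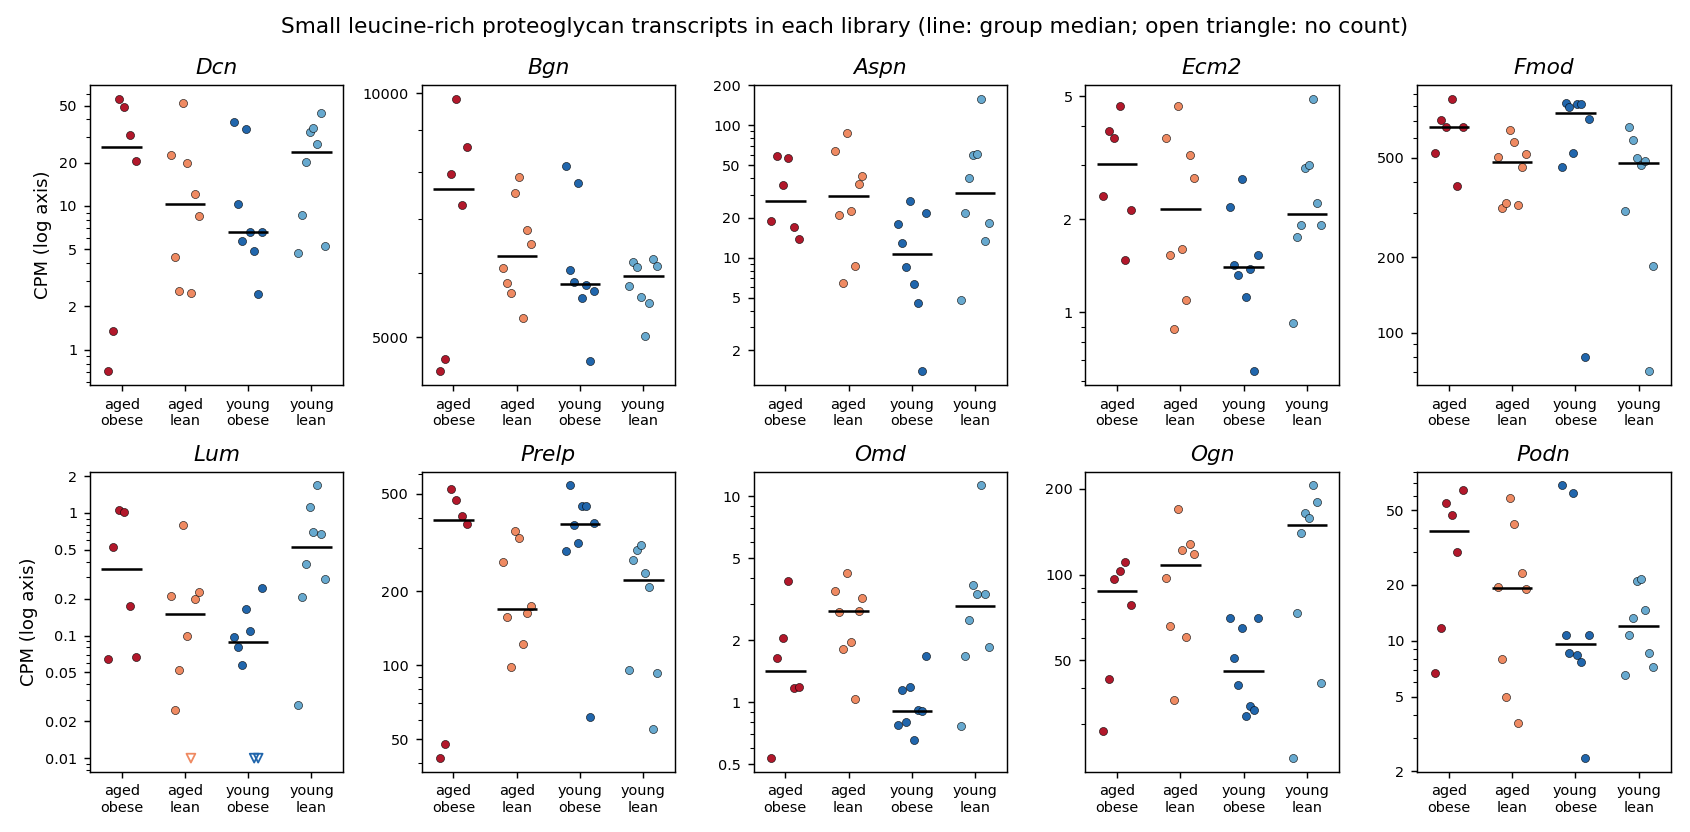
Level of each member in each library, as CPM on a log axis (1 panel per gene, 1 point per library, groups side by side, lines at group medians, open triangles for libraries with no count). Bgn stayed between 4540 and 9850 CPM, whereas Aspn spanned 1.39 to 159 CPM and Dcn 0.706 to 55.9 CPM, and young obese libraries sit low for Omd, Ogn, Aspn and Lum.

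The clearest difference was between young obese and young lean mice. The question was what the high-fat diet does to these cells in young animals. Of the 10 members, 4 fell and 0 rose with obesity in young mice: Omd, Ogn, Aspn and Lum. Lum passed the filter on low counts only through groups where it was high, and no young obese library reached the minimum, so its call adds no support to this count, which is 3 without it. Over all 14438 genes tested, edgeR called 8.83% in this comparison, 5.37% as lower and 3.46% as higher. The median log2 fold change of the members was -0.69, against -0.02 over all genes. In these bulk libraries fewer cells of a type and less RNA per cell cannot be told apart.

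Omd, Ogn and Aspn lie side by side with Ecm2 on chromosome 13, in the order Ecm2, Aspn, Omd, Ogn. The windows from 250 bases before to 50 bases after their RefSeq transcription starts are shown because these neighbours had log2 fold changes of the same sign, with the first of 2 windows of Podn, rich in CpG, for contrast. Capitals mark CpG, the dinucleotide that carries DNA methylation in mammals. Sequences are from RefSeq, build GRCm38.p6, written 5′ to 3′ on the strand of the gene. Ecm2 (chr13:49504560-49504859, plus strand), Aspn (chr13:49544193-49544492, plus strand), Omd (chr13:49582212-49582511, plus strand), Ogn (chr13:49607765-49608064, plus strand) and Podn (chr4:108031905-108032204, minus strand) read:
Ecm2: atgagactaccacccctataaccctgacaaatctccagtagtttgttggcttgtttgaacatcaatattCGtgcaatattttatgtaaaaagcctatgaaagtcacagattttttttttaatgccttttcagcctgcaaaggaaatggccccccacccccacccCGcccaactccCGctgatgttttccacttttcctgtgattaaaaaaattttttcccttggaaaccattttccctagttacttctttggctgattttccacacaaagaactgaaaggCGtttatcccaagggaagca
Aspn: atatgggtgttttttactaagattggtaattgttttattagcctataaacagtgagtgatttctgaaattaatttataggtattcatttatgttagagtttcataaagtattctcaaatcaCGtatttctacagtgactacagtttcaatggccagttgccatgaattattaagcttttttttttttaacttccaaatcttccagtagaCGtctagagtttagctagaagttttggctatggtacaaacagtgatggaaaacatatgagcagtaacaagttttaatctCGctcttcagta
Omd: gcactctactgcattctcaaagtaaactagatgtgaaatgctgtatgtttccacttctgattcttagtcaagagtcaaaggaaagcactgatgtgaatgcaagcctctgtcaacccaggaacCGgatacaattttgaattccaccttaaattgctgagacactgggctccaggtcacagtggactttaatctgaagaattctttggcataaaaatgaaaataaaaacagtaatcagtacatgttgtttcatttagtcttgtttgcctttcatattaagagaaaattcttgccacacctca
Ogn: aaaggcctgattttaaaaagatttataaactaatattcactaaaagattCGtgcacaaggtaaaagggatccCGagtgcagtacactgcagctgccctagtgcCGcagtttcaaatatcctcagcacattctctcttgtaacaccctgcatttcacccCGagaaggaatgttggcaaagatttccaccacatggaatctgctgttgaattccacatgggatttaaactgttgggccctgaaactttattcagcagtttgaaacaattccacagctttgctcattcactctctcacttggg
Podn: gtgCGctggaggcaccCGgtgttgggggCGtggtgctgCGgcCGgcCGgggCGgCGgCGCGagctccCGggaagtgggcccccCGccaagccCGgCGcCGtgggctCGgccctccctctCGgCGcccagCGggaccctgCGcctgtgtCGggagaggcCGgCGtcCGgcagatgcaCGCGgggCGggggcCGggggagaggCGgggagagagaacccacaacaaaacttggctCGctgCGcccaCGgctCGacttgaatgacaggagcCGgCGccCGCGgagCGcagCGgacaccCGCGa

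The chromosome 13 windows held few CpG, with 1 in Omd, 3 in Aspn, 4 in Ecm2 and 4 in Ogn, against a median of 7 over 32851 mouse promoter windows of the same length and 41 in the Podn window shown. This was not limited to the cluster or shared by all starts of a gene, since Fmod on chromosome 1 held 3, the second Podn window 7, Prelp 7 and Bgn 9. The GC content of the chromosome 13 windows was 31% in Aspn, 37.7% in Omd, 41.0% in Ecm2 and 42.3% in Ogn, against a median of 52.7%. Both strands were searched for the TATA box (TATAAA), for the promoter element CCAAT, and for the motifs of AP-1 (TGANTCA), TEAD factors (GGAATG) and RUNX factors (TGTGGT). The letters of the TATA box were in the Aspn window at -207 (plus strand) and -178 (minus strand) from the start. In the Ogn window they overlapped at -229 (minus strand) and -227 (plus strand), and 13.6% of all windows held them. These are matches of letters, and whether they act as promoter elements was not tested. The CCAAT element was in the Aspn window and in 37.4% of all, and the Ogn window held the TEAD motif (14.7% of all) and the RUNX motif (16.8% of all). The AP-1 motif, in 7.81% of all windows, was in none of those shown. None of the 5 motifs was in the Ecm2, Omd and Podn windows shown. Windows were found for 8 of the 10 members, not for Dcn and Lum.

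Omd encodes osteomodulin, a keratan sulfate proteoglycan best known from bone. It was at 0.656 to 1.68 CPM (median 0.907) in 8 young obese libraries, against 0.764 to 11.3 CPM (median 2.92) in 8 young lean libraries. All 8 young obese libraries were below the young lean median, and the groups overlapped through young lean 1 and 23. Omd fell by 1.81 ± 0.41 (SE) on the log2 scale, with edgeR adjusted p = 0.0151, and it passed with each of the 16 young libraries left out in turn. Without both young obese 1 and 2 the change was as large, -1.80, but the edgeR adjusted p was 0.053.

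Ogn encodes osteoglycin, also called mimecan, a class III member that takes part in collagen fibril assembly. It was at 32 to 70.7 CPM (median 45.9) in young obese libraries, against 22.7 to 206 CPM (median 149) in young lean libraries. Young obese libraries all lay below the lean median, while young lean 1 (22.7) and 7 (41.7) were as low as the obese ones. The log2 fold change was -1.31 ± 0.37 (edgeR adjusted p = 0.0303). Without both young obese 1 and 2 it was -1.49 (edgeR adjusted p = 0.0614), and 5 of 16 fits with 1 library left out did not pass.

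Aspn encodes asporin, a class I protein that binds collagen and TGF-beta and is known from cartilage and tendon. Young obese libraries held 1.39 to 27 CPM (median 10.7), against 4.77 to 159 CPM (median 30.7) in young lean libraries. The highest lean library was young lean 27 and the lowest obese one young obese 22. The log2 fold change was -1.91 ± 0.61 (edgeR adjusted p = 0.0469), and -1.31 (0.161) without young lean 27. The call held with 2 of 16 libraries left out in turn and ended with the other 14.

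Lum encodes lumican, a class II member known for ordering the collagen of the cornea. Its counts were 0 to 10 per library in young obese mice, 27 in all, against 1 to 54 in young lean mice, 171 in all. As levels these were 0 to 0.243 CPM (median 0.0885) in young obese and 0.0273 to 1.68 CPM (median 0.525) in young lean libraries. The groups overlapped at the low end of the lean libraries, with 1 count in young lean 1. The log2 fold change was -2.69 ± 0.76 (edgeR adjusted p = 0.0313), -2.31 (0.0785) without young lean 27 and -2.86 (0.0769) without both young obese 1 and 2. As Lum passed the filter only through groups where it was high, this change was tested on very few reads.

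The number that fell rested on single libraries. Leaving out young lean 26, young lean 27, young obese 21 or young obese 22 gave 1, and leaving out young lean 7, young obese 1, young obese 2 or young obese 20 gave 2. Without both young obese 1 and 2 it was 0, and the share of all genes called then was 0.993%. The log2 fold changes of all 4 genes stayed at -1.16 or lower in each of these fits, so it was the side of the threshold that moved and not the sign.

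**Figure D2:**
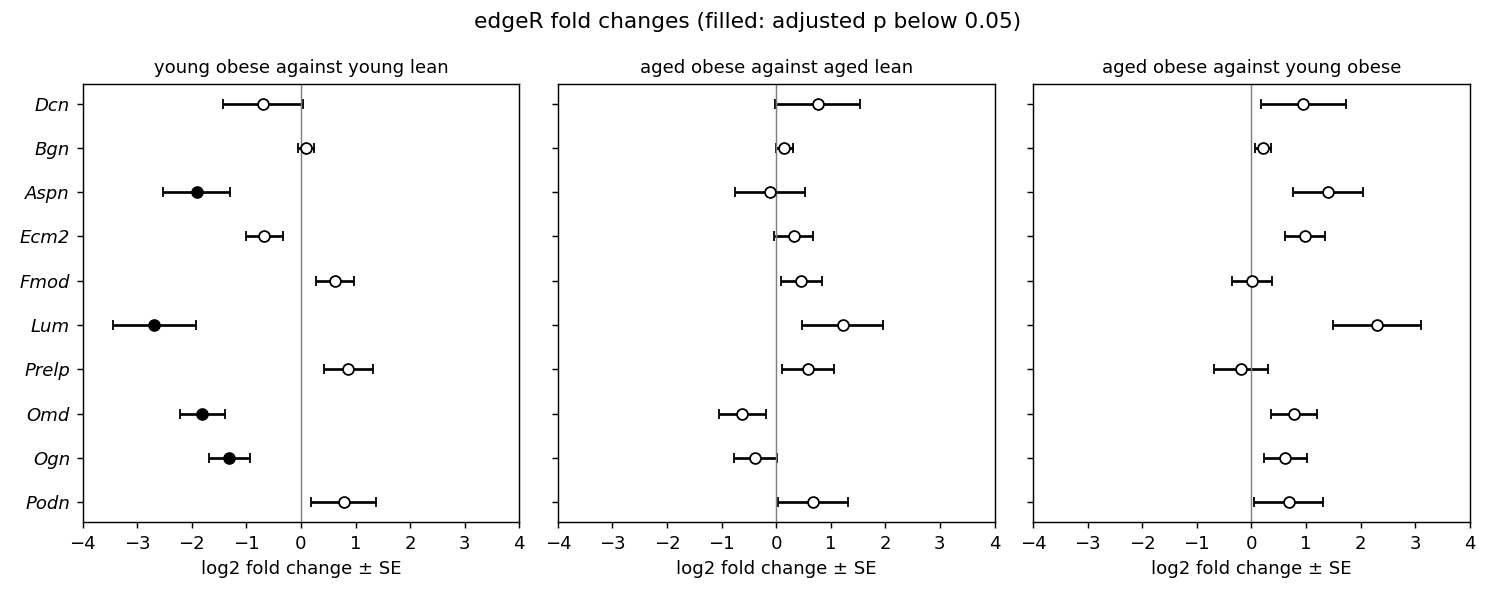
Log2 fold change of each member with its SE in 3 comparisons (panels from left: young obese against young lean, aged obese against aged lean, aged obese against young obese), from the edgeR fit of all 30 libraries. Filled points passed at an adjusted p below 0.05: Omd, Ogn, Aspn and Lum, all lower in young obese than in young lean mice.

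The other 6 members did not pass between young obese and young lean mice. Ecm2, a matrix protein with leucine-rich repeats, was at 0.645 to 2.7 CPM (median 1.4) in young obese and 0.927 to 4.91 CPM (median 2.09) in young lean libraries, a log2 fold change of -0.67 ± 0.34 (edgeR adjusted p = 0.19). It had the same sign as its 3 neighbours on chromosome 13 with a smaller size. Decorin, which binds TGF-beta and is the best known member in skin and tendon, was at 2.43 to 38.4 CPM (median 6.56) in young obese and 4.69 to 44.2 CPM (median 23.6) in young lean libraries. Its log2 fold change was -0.70 ± 0.73 (edgeR adjusted p = 0.552), and -1.87 ± 0.77 (0.149) without young obese 1 and 2, which held 38.4 and 34.4 CPM against 2.43 to 10.3 CPM in the remaining 6 of that group.

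Fibromodulin and Prelp had positive values instead. Fmod, a keratan sulfate proteoglycan that steers collagen cross-linking, was at 80.4 to 826 CPM (median 752) in young obese and 70.2 to 664 CPM (median 477) in young lean libraries, with a log2 fold change of 0.62 ± 0.35 (edgeR adjusted p = 0.24). Prelp, which anchors basement membranes to connective tissue, was at 61.7 to 541 CPM (median 376) in young obese and 55.2 to 309 CPM (median 223) in young lean libraries, with 0.87 ± 0.45 (edgeR adjusted p = 0.204). The lowest library of both genes was the same one within a group: young obese 22 held the least of both among young obese mice, and 1 young lean library, with 70.2 CPM of Fmod and 55.2 CPM of Prelp, among young lean mice. With library quality weights in limma voom, both passed as higher (Fmod adjusted p = 0.0312, Prelp adjusted p = 0.0167), in a fit that called 29.5% of all genes. That fit also called more members as lower than edgeR did.

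Podocan, first described in the kidney glomerulus, and biglycan showed no difference that passed. Podn was at 2.35 to 68.1 CPM (median 9.65) in young obese and 6.57 to 21.4 CPM (median 12) in young lean libraries. Young obese 1 and 2 held 68.1 and 61.8 CPM and the other 6 between 2.35 and 10.7 CPM, so that the log2 fold change was 0.78 ± 0.60 (edgeR adjusted p = 0.405) with them and -0.68 ± 0.53 (0.437) without them. Bgn, which binds collagen and signals through Toll-like receptors when free, was at 4670 to 8140 CPM (median 5830) in young obese and 5020 to 6250 CPM (median 5940) in young lean libraries. Its log2 fold change was 0.09 ± 0.14 (edgeR adjusted p = 0.706), and young obese 1 and 2 were again the highest, with 8140 and 7750 CPM.

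**Figure D3:**
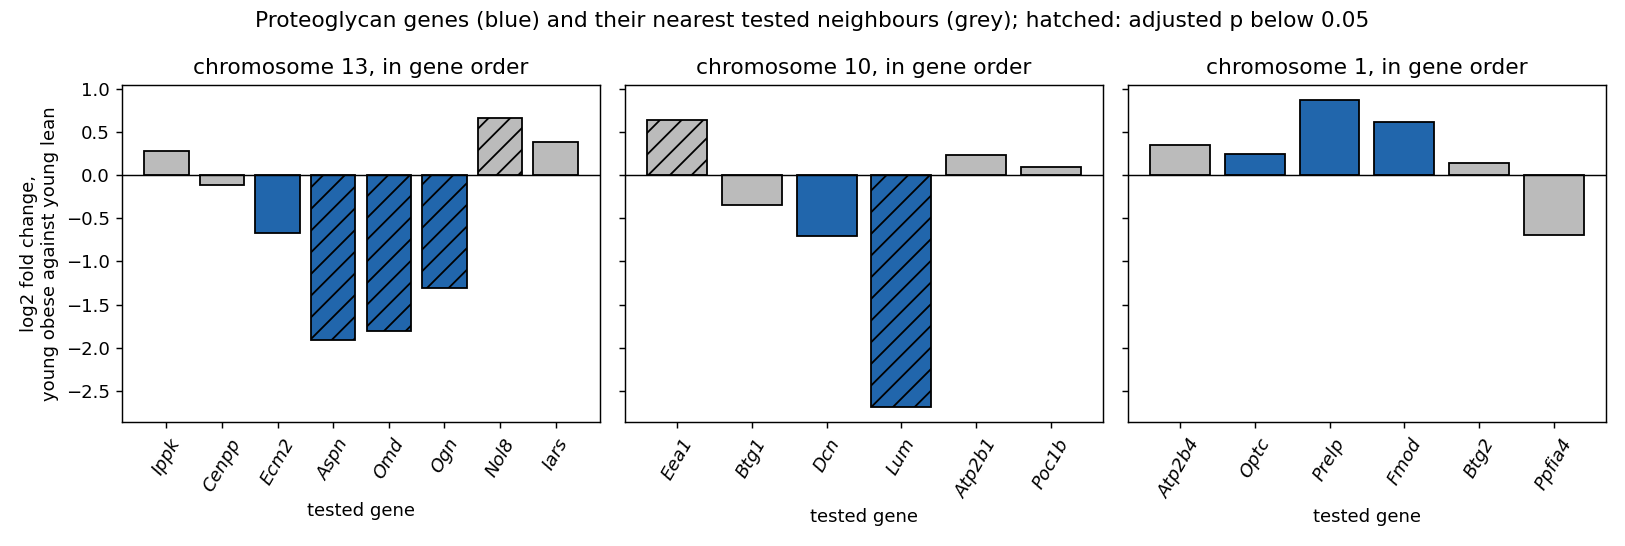
Log2 fold change, young obese against young lean, of the members and the genes next to them, in chromosome order (panels: chromosomes 13, 10 and 1; bars: edgeR log2 fold change, blue for family members, grey for other genes, hatched where called). On chromosome 13 the run of negative values is made of Ecm2, Aspn, Omd and Ogn, with the overlapping Cenpp at -0.11, and Nol8 next to Ogn was higher.

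None of the genes next to the members on chromosomes 13, 10 and 1 was called lower, though Ppfia4 on chromosome 1 was at -0.69 (edgeR adjusted p = 0.106). On chromosome 13 Cenpp, a centromere gene whose span overlaps the 4 members, had a log2 fold change of -0.11 (edgeR adjusted p = 0.813). Outside the cluster lay Ippk, at 0.28 (edgeR adjusted p = 0.511), and Nol8, a nucleolar gene that rose by 0.67 (0.0123). On chromosome 10 Dcn and Lum lie side by side, at -0.70 and -2.69. Of their neighbours Eea1, an endosome gene, rose by 0.64 (edgeR adjusted p = 0.0303), and Btg1 was at -0.34 (0.342). Prelp and Fmod are neighbours on chromosome 1, at 0.87 and 0.62, with Optc, a further member of the family, at 0.25 (edgeR adjusted p = 0.462). Next to Podn on chromosome 4 Echdc2 fell by 0.45 (edgeR adjusted p = 0.0372), and next to Bgn on the X chromosome Zfp275 rose by 0.32 (0.0382). Since the strand setting of the counting is not given in the sources used here, reads of Cenpp and of the members inside its span cannot be told apart where exons overlap.

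Marker lists of other cell states were set beside this comparison, in which edgeR called 3.46% of all genes as higher and 5.37% as lower. Of 3 osteoblast genes tested, of 5 listed, Sp7 and Alpl rose with obesity in young mice, by 1.23 (edgeR adjusted p = 0.0201) and 1.79 (0.0151) on the log2 scale. The summed level of the list was 67.9 to 263 CPM (median 159) in young obese and 49.3 to 86.2 CPM (median 66.8) in young lean libraries, and Bglap and Ibsp, which define mature osteoblasts, were below 1 CPM in every library. The summed level of 6 cell cycle genes was 125 to 792 CPM in young obese and 247 to 511 CPM in young lean libraries, with 0 of 6 passing. Of these, Mki67 split the young obese group. It was at 38.1 and 36 CPM in young obese 1 and 2 and at 124 to 209 CPM in the others, highest in young obese 22. For 6 genes of Dpp4+ progenitors the summed level was 30.5 to 138 CPM (median 37.4) in young obese and 48.6 to 128 CPM (median 82.3) in young lean libraries, with 0 of 5 tested genes passing and Bmp7 at or near 0. Adipocyte genes had the same sign as the members that fell: the summed level of 6 genes was 0.267 to 2.44 CPM (median 0.717) in young obese and 0.327 to 23.2 CPM (median 3.08) in young lean libraries. The 3 tested, Adipoq, Plin1 and Cfd, had log2 fold changes of -2.82 to -2.46 and an unadjusted p below 0.05, against 28.3% of all genes, and none passed after adjustment. Their young obese medians, 0.217, 0.242 and 0.167 CPM, were below the filter minimum of 0.279 CPM. These 3 changes were therefore tested on few reads in young obese mice, and their count adds no support. Lep was at 0 in every library, and Cidec and Retn did not pass the filter on low counts. Of 6 preadipocyte genes Icam1 alone passed, higher by 0.97 (edgeR adjusted p = 0.0182), and the other 5 had negative values. The part of these states in the differences of the proteoglycans was not tested.

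In aged mice obesity left none of the 10 members past the threshold. Between aged obese and aged lean mice edgeR called 0.222% of all genes, 0.166% as higher and 0.0554% as lower, and 0 of 10 members, and 0 of 10 had an unadjusted p below 0.05, against 12.7% of all genes. DESeq2 and limma voom called 0 of 10 members too, with 1.3% and 0.79% of all genes called. Omd was at 0.535 to 3.86 CPM (median 1.41) in 6 aged obese and 1.04 to 4.25 CPM (median 2.76) in 8 aged lean libraries, a log2 fold change of -0.62 ± 0.43 (edgeR adjusted p = 0.591). Ogn was at 28.3 to 111 CPM (median 87.3) in aged obese and 36.3 to 170 CPM (median 108) in aged lean libraries (-0.38 ± 0.39, edgeR adjusted p = 0.761). The lowest aged obese libraries of Ogn were 10 and 12, at 28.3 and 43 CPM, and single libraries left out gave -0.52 to -0.2. The groups overlapped over most of their range for both genes.

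Neither Aspn nor Lum passed in aged mice. Aspn was at 13.9 to 58.2 CPM (median 27) in aged obese and 6.49 to 88 CPM (median 29.2) in aged lean libraries, a log2 fold change of -0.11 ± 0.64 (edgeR adjusted p = 0.97). Lum was at 0.0642 to 1.05 CPM (median 0.352) in aged obese and 0 to 0.803 CPM (median 0.149) in aged lean libraries, from 107 and 62 counts in all, a log2 fold change of 1.22 ± 0.74 (edgeR adjusted p = 0.52). Of the 6 aged obese libraries, 4 were above the aged lean median of Lum.

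Whether obesity acted differently at the 2 ages was tested directly. The log2 fold change of Lum with obesity was 1.22 in aged and -2.69 in young mice, and the aged value minus the young value was 3.92 ± 1.06 (unadjusted p = 0.000908, edgeR adjusted p = 0.29). Lum reached the minimum of the filter in 0 young obese and 1 aged lean library, so this difference was tested on very few reads. For Aspn the same signed difference was 1.80 ± 0.87 and for Omd 1.19 ± 0.58, each with edgeR adjusted p = 0.621. None of the 10 passed with edgeR, DESeq2 or limma voom, which called 0.00693%, 0.0485% and 0.63% of all genes. An unadjusted p below 0.05 was found for 3, Lum, Aspn and Omd, against 8% of all genes, and Lum adds no support to this count. An obesity effect that passed in young mice and not in aged mice was therefore not shown to differ between the ages for any member.

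Aged obese libraries were set apart by mice 10 and 12. Dcn was at 0.706 and 1.34 CPM in these and at 20.7 to 55.9 CPM in the remaining 4 of that group, a 79.2-fold span. Prelp was at 41.9 and 47.9 CPM there and at 378 to 525 CPM in the others, and Bgn at 4540 and 4700 CPM against 7280 to 9850 CPM. Podn was at 6.68 and 11.7 CPM, and at 30 to 64 CPM in the others. Fmod, at 523 and 704 CPM, was within the range of the other 4 (387 to 860 CPM), and Aspn, at 18.8 and 58.2 CPM, was not low there either.

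**Figure D4:**
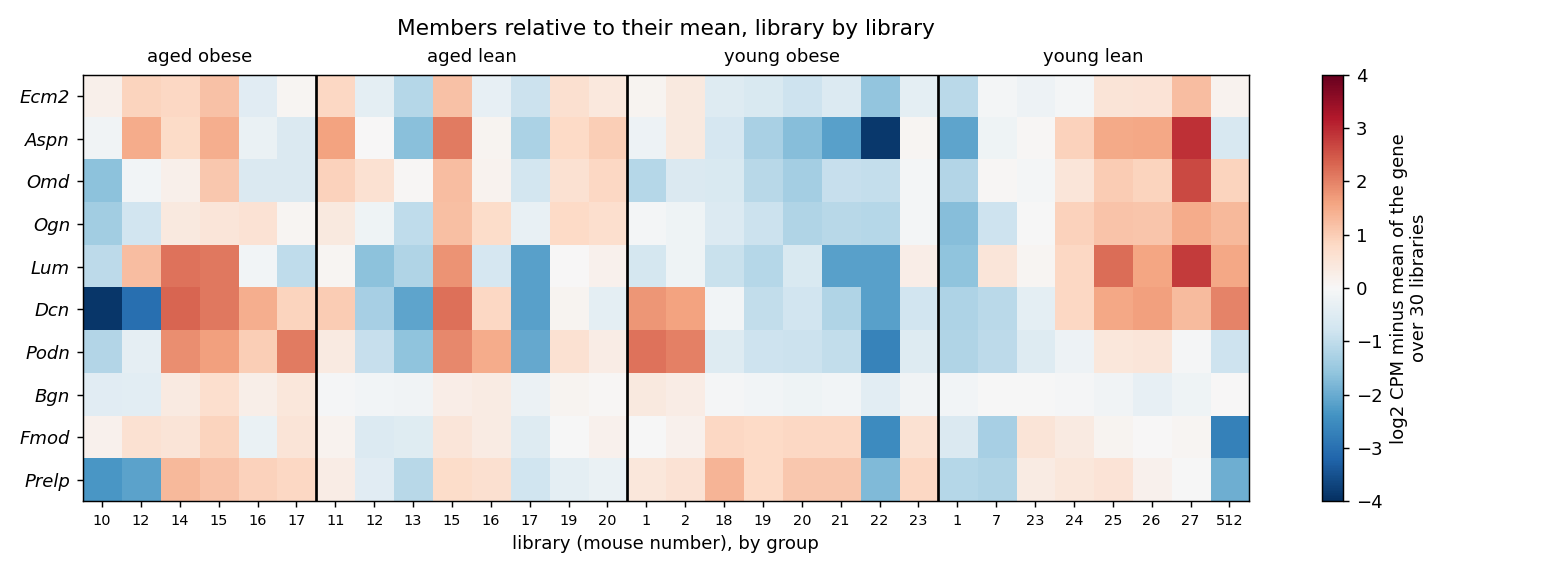
Each member's log2 CPM in each library minus its mean over the 30 libraries (rows: members, columns: libraries by group). Aged obese 10 and 12 stand out as low in Dcn and Prelp and not in Fmod or Aspn, and young obese 1 and 2 as high in Dcn and Podn.

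The members that were low in aged obese 10 and 12 did not pass between aged obese and aged lean mice, with or without these libraries. Dcn was at 0.706 to 55.9 CPM (median 25.9) in aged obese and 2.46 to 52.1 CPM (median 10.3) in aged lean libraries (log2 0.76 ± 0.78, edgeR adjusted p = 0.757). Prelp was at 41.9 to 525 CPM (median 392) in aged obese and 98.6 to 354 CPM (median 169) in aged lean libraries (0.58 ± 0.48, edgeR adjusted p = 0.672). Without aged obese 10 and 12 the log2 fold changes were 1.33 for Dcn (edgeR adjusted p = 0.313) and 1.10 for Prelp (0.194).

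Bgn averaged 7150 ± 2140 CPM (SD, n = 6) in aged obese and 6450 ± 915 CPM (SD, n = 8) in aged lean libraries, a log2 fold change of 0.15 ± 0.15 (edgeR adjusted p = 0.747). Fmod averaged 634 ± 162 CPM in aged obese and 459 ± 125 CPM in aged lean libraries (0.46 ± 0.37, edgeR adjusted p = 0.657). Ecm2 averaged 3.03 ± 1.20 CPM in aged obese and 2.42 ± 1.35 CPM in aged lean libraries (0.32 ± 0.36, edgeR adjusted p = 0.782). Podn averaged 35.7 ± 23.4 CPM in aged obese and 22.3 ± 19.1 CPM in aged lean libraries (0.68 ± 0.64, edgeR adjusted p = 0.722). For each of these 4 genes the 2 groups overlapped.

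Between aged obese and young obese mice, 9 of 10 members had a positive log2 fold change and none passed. edgeR called 3.07% of all genes, 1.87% as higher and 1.2% as lower, and the members' median was 0.73, against 0.01 over all genes. Of the 10, 3 had an unadjusted p below 0.05 (Lum, Ecm2 and Aspn), against 18.9% of all genes, and DESeq2 called 0, with 5.92% of all genes called. Lum adds no support to this count, since other groups carried it through the filter. This comparison shares the young obese libraries with the one above, so the same low young obese values enter both. Lum was at 0.0642 to 1.05 CPM (median 0.352) in aged obese and 0 to 0.243 CPM (median 0.0885) in young obese libraries, a log2 fold change of 2.30 ± 0.80 (edgeR adjusted p = 0.102). Ecm2 was at 1.48 to 4.63 CPM (median 3.02) in aged obese and 0.645 to 2.7 CPM (median 1.4) in young obese libraries (0.98 ± 0.36, edgeR adjusted p = 0.125). Aspn was at 13.9 to 58.2 CPM (median 27) in aged obese and 1.39 to 27 CPM (median 10.7) in young obese libraries (1.41 ± 0.64, edgeR adjusted p = 0.219). All 6 aged obese libraries were above the young obese median for Ecm2 and Aspn, and 4 of 6 for Lum.

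The remaining members were further from the threshold between aged obese and young obese mice. The log2 fold change was 0.95 ± 0.78 for Dcn, 0.78 ± 0.43 for Omd, 0.62 ± 0.39 for Ogn, 0.68 ± 0.64 for Podn, 0.21 ± 0.15 for Bgn, 0.01 ± 0.37 for Fmod and -0.19 ± 0.49 for Prelp. Calls appeared when libraries that stand apart were left out or weighted down. Without aged obese 10 and 12, Bgn (0.45 ± 0.13, edgeR adjusted p = 0.0208) and Lum (2.58 ± 0.85, edgeR adjusted p = 0.037) were higher in aged obese mice, with 18.3% of all genes called. For Lum no young obese library reached the minimum of the filter, so its calls against young obese mice rest on a gene that the other groups carried through the filter. In the same comparison without young obese 1 and 2 Podn was higher (2.14 ± 0.58, edgeR adjusted p = 0.0345), with 4.46% of all genes called. With quality weights in limma voom, which called 19.9% of all genes, 5 members were higher: Podn (2.02, adjusted p = 0.00416), Bgn (0.37, 0.0175), Ecm2 (1.01, 0.0389), Lum (2.56, 0.039) and Dcn (1.84, 0.0412).

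Age in lean mice moved no member past the threshold. edgeR called 0% of all genes between aged lean and young lean mice, with 5.35% at an unadjusted p below 0.05, among the members Lum alone. DESeq2 and limma voom called 0 of 10 members here as well, with 0.0554% and 0.0416% of all genes called. Lum was at 0 to 0.803 CPM (median 0.149) in aged lean and 0.0273 to 1.68 CPM (median 0.525) in young lean libraries, a log2 fold change of -1.61 ± 0.69 (unadjusted p = 0.0269, edgeR adjusted p = 0.85). It rests on few reads, 62 and 171 counts in all. The other 9 members lay between -0.51 (Dcn) and 0.79 (Podn), and their groups overlapped.

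Against young lean mice, aged obese mice likewise had 0 of 10 members called, where edgeR called 10.3% of all genes, 5.62% as higher and 4.65% as lower. An unadjusted p below 0.05 was found for 2 of 10, against 28% of all genes, and DESeq2 and limma voom called 0 of 10, with 14.4% and 4.81% of all genes called. Omd was at 0.535 to 3.86 CPM (median 1.41) in aged obese and 0.764 to 11.3 CPM (median 2.92) in young lean libraries (-1.04 ± 0.43, edgeR adjusted p = 0.117). Podn was at 6.68 to 64 CPM (median 38.6) in aged obese and 6.57 to 21.4 CPM (median 12) in young lean libraries (1.46 ± 0.64, edgeR adjusted p = 0.131). The 4 aged obese libraries other than 10 and 12 were all above the highest young lean library of Podn. Bgn was 0.30 ± 0.15 higher on the log2 scale (edgeR adjusted p = 0.185), and 0.54 ± 0.13 (0.0129) without aged obese 10 and 12.

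**Figure D5:**
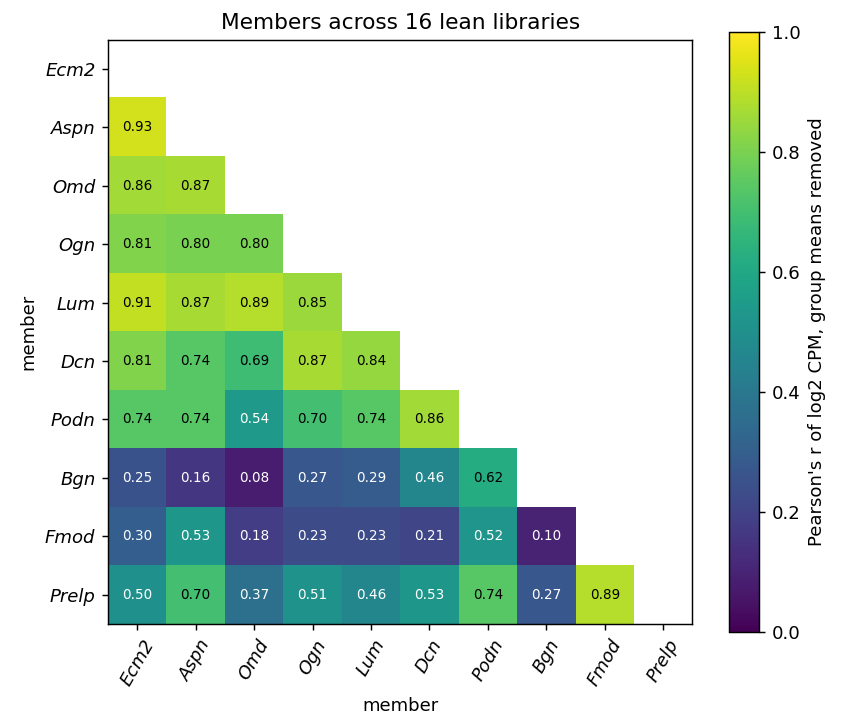
Pearson's r between the log2 CPM of each pair of members over the 16 lean libraries, after the group means were removed (rows and columns: members, colour: r). All 45 values are positive, from 0.08 for Bgn with Omd to 0.93 for Aspn with Ecm2.

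How the members varied between mice of a group was examined over the 16 lean libraries with group means removed, because obese libraries fall into separate sets, and 45 pairs were tested by permutation within groups. All 45 Pearson coefficients were positive and 25 pairs passed with both r and rho after Benjamini-Hochberg adjustment. Over all 104220703 pairs of the 14438 tested genes in the same libraries, 50.1% of coefficients were positive and 11.8% were at least 0.52, the smallest r of a pair that passed, as were 28 of the 45 member pairs. The median r was 0.69 over member pairs and 0 over all pairs, as a description of libraries that also differ in other genes. Aspn and Ecm2, neighbours on chromosome 13, had the highest value, with r = 0.93 (permutation p = 1e-05, the smallest the permutations can give, adjusted p = 0.00015) and rho = 0.89 (adjusted p = 0.00011). It was 0.90 without young lean 1 and 27, 0.98 within aged lean and 0.93 within young lean libraries. Fmod and Prelp, neighbours on chromosome 1, followed the same pattern with r = 0.89 and rho = 0.90 (permutation adjusted p = 0.00017 and 0.00015), 0.87 without the 2 libraries with the least Fmod.

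High values were not limited to neighbours on a chromosome. Ecm2 and Lum, on different chromosomes, had r = 0.91 and rho = 0.86, and Lum and Omd r = 0.89 and rho = 0.91. Lum had 62 counts over the aged lean and 171 over the young lean libraries, so its coefficients rest on very few reads. Pairs of Lum are among the 25 that passed. Dcn with Ogn had r = 0.87 and rho = 0.88, and Dcn with Podn r = 0.86 and rho = 0.83. Bgn stood aside: its r with Omd was 0.08, with Fmod 0.10 and with Aspn 0.16, and none of its 9 pairs passed. Within aged lean libraries r of Bgn with Podn was 0.95, and within young lean libraries it was -0.69, so a pooled value for Bgn hides opposite signs at 8 libraries each.

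Among tested genes that averaged 4 CPM or more, the 3 with the highest Spearman's rho to each member over the 30 libraries were listed, as a description with no test. These libraries share groups and sets. Dcn was most like Dpep1, Mfap4 and Gdf10 (rho 0.94 each), and Podn most like Anpep (0.94), Os9 and Cercam (0.93 each). Aspn was most like Gstt2 (0.85), Kcp and Rspo2 (0.84 each), Ecm2 like Aspn itself (0.89), Kcp (0.85) and Atp9a (0.83), and Lum like Kcp (0.88), Adamts10 (0.85) and Sat2 (0.81). Kcp was thus among the 3 for Aspn, Ecm2 and Lum. Ctla2a (0.89) led for Omd, Rtl3 (0.91) for Ogn, Pcsk6 (0.91) for Prelp, Lgals9 and Cwc25 (0.90 each) for Bgn, and Efnb1 (0.83) and Tgfb3 (0.81) for Fmod.

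Genes that act on the proteoglycans were counted from lists. Of 22 tested genes that build chondroitin and dermatan sulfate chains, 1 rose and 0 fell in young obese against young lean mice: Chsy3, a chondroitin sulfate synthase, at 3.1 to 14.7 CPM (median 6.29) in young obese and 1.45 to 5.45 CPM (median 4.21) in young lean libraries (log2 0.90 ± 0.28, edgeR adjusted p = 0.0416). Over all genes 3.46% were called higher there, so 1 of 22 is near the background. In aged obese against aged lean mice 1 rose and 0 fell, the synthase Chsy1, at 25.8 to 49.2 CPM (median 39) in aged obese and 22.2 to 31.7 CPM (median 27.1) in aged lean libraries (0.50 ± 0.11, edgeR adjusted p = 0.0376), where 0.166% of all genes were called higher. In aged obese against young lean mice 4 of 22 rose and 0 fell, against 5.62% of all genes higher, with Chst11 (a chondroitin sulfotransferase) at 1.65, Chsy3 at 1.19 and Pxylp1 at 0.72 as the largest log2 fold changes. Of 8 genes of keratan sulfate synthesis, 1 rose in that comparison, the sulfotransferase Chst2, by 0.90.

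Of 15 receptors and bound growth factors tested, 3 rose and 0 fell in aged obese against young obese mice, where 1.87% of all genes were called higher, and all 3 encode TGF-beta, the growth factor that Dcn, Bgn, Aspn and Fmod bind. The log2 fold changes were 1.58 ± 0.43 for Tgfb1, 0.99 ± 0.27 for Tgfb2 and 1.09 ± 0.31 for Tgfb3 (edgeR adjusted p = 0.0419, 0.0419 and 0.0467). Tgfb1 was at 34.6 to 204 CPM (median 47.4) in aged obese and 24.4 to 45.8 CPM (median 29.3) in young obese libraries. Tgfb2 was at 13.6 to 108 CPM in aged obese and 17.4 to 36.8 CPM in young obese libraries. Tgfb3 was at 58.2 to 438 CPM and 87.6 to 137 CPM in the same order, so the groups overlapped for all 3. Without aged obese 15 edgeR called 43 of all genes in this comparison, against 443 with it. Whether these 3 passed there was not checked. In young obese against young lean mice 2 of 15 rose, Igf1r by 0.39 and the integrin Itgb1 by 0.26, against 3.46% of all genes, and in aged obese against young lean mice 5 of 15 rose, against 5.62%. None of the 10 collagens that these proteoglycans bind and none of the 10 tested proteases that cut or process them passed in any of the comparisons, in which edgeR called between 0% and 10.3% of all genes. Of the other members of the family, Epyc, Kera, Chad and Nyx did not pass the filter on low counts, and of Optc, Chadl, Tsku and Podnl1 only Tsku passed in a comparison, higher by 0.88 in aged obese than in young lean mice (edgeR adjusted p = 0.041).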

How the data were processed

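RNA of cultured adipose-derived stem cells was sequenced in 30 libraries, and the authors deposited a table of raw, unscaled counts for Ensembl mouse genes. STAR, HTSeq 0.7.0 and DESeq2 1.12.4 stand in the submitters' processing notes. Build, annotation and strand setting are not given in the sources used here. The table held 38561 genes and 5 lines that name no gene, of which reads in no gene (3.94% to 8.75% per library) and ambiguous reads (2.69% to 3.41%) did not enter totals or tests. Symbols were found for 36639 genes. Groups and mouse numbers came from the sample titles, and no batch is labelled.

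In edgeR 4.0.16 (R 4.3.3) filterByExpr by group left 14438 genes, libraries were scaled with TMM, and all 30 libraries entered a quasi-likelihood fit that had 1 term for each group. A gene was called at a Benjamini-Hochberg adjusted p below 0.05 over all tested genes. CPM are counts relative to the TMM-scaled library total, and log2 CPM used a prior count of 2. CPM per kb used merged exon lengths of GENCODE vM21. Correlations used 100000 permutations within groups and were adjusted over 45 pairs. They were planned over 30 libraries and run over the 16 lean ones, because obese libraries fall into separate sets. Library distances are chi-square statistics per gene.

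Alternatives were DESeq2 1.42.0, limma 3.58.1 voom with quality weights, other scalings, no filter, an offset for length and GC content, fewer groups in the fit, libraries left out, and a replicate block. The edgeR script was tested on simulated data. The members and lists were chosen with earlier results of these data known. Beyond the 10 members the text names some of the called genes of the lists, of the most alike genes of a member and of the nearest tested neighbours. Btg1, Optc, Mki67 and marker genes at or near 0 were named beside these. Called list genes not described above were Sdc3, Cspg4, Ccn4, Runx2, Eng and Myh11, each higher where called. Icam1 was also higher in aged obese than in aged lean mice (log2 1.35, edgeR adjusted p = 0.0113) and than in young lean mice (1.19, 0.00668). Protein sequences were not used here.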

Additional observations from a re-analysis of the deposited data

Results flagged for a closer look

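Among 40 sets of values, 10 members in 4 groups, 2 held a library far from the others of its group, where chance flags about 1 in 20. Both came from young obese 22. Fmod was at 80.4 CPM there, against 459 to 826 CPM in the remaining 7 of its group, and Prelp was at 61.7 CPM, against 291 to 541 CPM. On the log2 scale its gap to the nearest library was 0.748 of the group's range for Fmod and 0.715 for Prelp, above Dixon's 95% critical value for 8 libraries. The same library held the least Aspn (1.39 CPM), Dcn (2.43 CPM), Ecm2 (0.645 CPM), Podn (2.35 CPM) and Bgn (4670 CPM) of its group, but not the least Omd or Ogn. It also held the most Mki67 of its group (209 CPM).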

How the results depend on the processing

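Of 337 values of single members under settings other than a left-out library, 292 kept their direction and side of the threshold, 11 lost a call, 13 gained one and 21 changed sign. The number of members that fell in young obese against young lean mice was also 4 with DESeq2's size factors, upper quartile scaling and DESeq2 itself, and 6 with limma voom, but 1 with no filter on low counts, 1 with an offset for length and GC content (Omd in both), 2 with only the groups compared in the fit, 0 without young obese 1 and 2, and 1 to 4 with single libraries left out. With quality weights in limma voom 2 members rose in this comparison and 5 in aged obese against young obese mice. In aged obese against young obese mice there were 2 higher without aged obese 10 and 12 and 1 without young obese 1 and 2, and aged obese against young lean mice had 1 without aged obese 10 and 12.

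Signs changed in these cases, and the cause was not tested. For Fmod in aged obese against young obese mice the log2 fold change was 0.00 with upper quartile scaling, -0.30 with voom weights, -0.09 without young obese 1 and 2, and -0.15 to 0.12 with single libraries left out. For Prelp it was 0.33 without aged obese 10 and 12, and -0.41 to 0.05 with single libraries left out. For Aspn in aged obese against aged lean mice it was 0.04 with the offset, and -0.34 to 0.22 with single libraries left out. In young obese against young lean mice Bgn was at -0.02 with voom weights and -0.05 without young obese 1 and 2, and Podn at -0.45 and -0.68.

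The sample titles give a number for each mouse and do not say that a number shared by 2 groups pairs them. Deviations of same-numbered libraries correlated at 0.20, 0.39, -0.10 and -0.52 in aged and at 0.08 and 0.21 in young mice. The best match of a library had its own number for both of the 2 shared numbers in young mice. It did so for none of the 4 in aged mice. In fits of only the libraries with shared numbers, 0 members fell in young obese against young lean mice without the replicate block and 0 with it. The log2 fold changes there were 0.59 without and 0.94 with the block for Aspn, 1.75 and 1.32 for Dcn, 0.47 and 0.50 for Ecm2, 0.55 and 0.78 for Ogn, and 0.02 and 0.01 for Omd, on 2 mice a group. Aspn in aged obese against aged lean mice was at 0.04 without and 0.27 with the block. The block was not run for the interaction, and the other comparisons share no numbers. Depth limits Lum most, with 27 counts over the young obese libraries, then Omd and Ecm2.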
